A study of Mus musculus with 12 samples.

Results

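Immediate-early genes, the inhibitors that feed back on them and the heat shock chaperones were examined in the blood of aged mice. The members were chosen by gene symbol: the Fos, Jun, Egr, Nr4a, Atf and Maf transcription factors, Klf genes, the Ier, Dusp, Zfp36, Tnfaip, Btg and Gadd45 families, single genes such as Mcl1, Sgk1 and Hif1a, and the Hspa, Hsp90 and Dnaj chaperones. This gave 89 of the 8003 genes of the blood table, all of them mRNA genes. The same names matched 1 of 284 genes in the hippocampus table, Klf14, which was listed at 0.02, 0.07 and 0.02 FPKM in the 3 control libraries and at 0.07, 0.11 and 0.11 in the 3 treated ones. The symbols of Zfp362 and Zfp365 match by their letters alone, and these genes are zinc-finger genes outside the Zfp36 family.

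The 6 blood libraries came from C57BL/6 mice, 15 months old, 3 from the control group (Ctrl 1, 2 and 3) and 3 from the treated group (Akk 1, 2 and 3). The control mice are labelled as normal. For the treated mice the labels name a membrane protein of *Akkermansia muciniphila*, a mucin-degrading gut bacterium, for 8 weeks in one field, and a second field, filled in for the control mice too, gives 6 weeks. The paper instead describes mice pretreated with antibiotics and then gavaged with the bacterium, or with a vehicle as control. The length of treatment in its methods differs from that in its results. Its methods also say that the gut of the mice used for RNA was not successfully colonized.

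Immediate-early genes are switched on within minutes of a signal without the need for new protein, mainly through serum response factor and its Elk partners at CArG boxes and through CREB at cyclic AMP response elements (CRE). Their products include transcription factors such as Fos and Egr1, and inhibitors such as Dusp1, which removes phosphate from MAP kinases, and Zfp36, which speeds the decay of cytokine mRNAs, so that the response ends itself. Heat shock chaperones fold proteins, and the inducible ones are driven by heat shock factor at heat shock elements (HSE). In blood, leucocytes can induce both kinds of gene after a stimulus.

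The promoters of 5 members that stood high in the Ctrl 1 library and of 1 inducible chaperone are shown because they carry these elements in letters. Each is a stretch of 120 bases upstream of a RefSeq gene start (GRCm38.p6), written 5′ to 3′ on the strand of the gene, in lower case with the matches in capitals. Fos lies at chr12:85473770-85473889 (+), with a CRE core and a TATA box. Dusp1 lies at chr17:26508563-26508682 (-), with a CRE core and a full CRE. Btg2 lies at chr1:134079246-134079365 (-), with a full CRE. Zfp36 lies at chr7:28379229-28379348 (-), with a CArG box. Dusp5, another MAP kinase phosphatase, lies at chr19:53529025-53529144 (+), with 2 CArG boxes end to end and a CRE core on the other strand. Hspa1a lies at chr17:34972187-34972306 (-), with an HSE.
Fos: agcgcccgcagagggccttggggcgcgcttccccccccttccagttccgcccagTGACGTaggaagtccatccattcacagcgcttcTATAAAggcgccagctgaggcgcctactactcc
Dusp1: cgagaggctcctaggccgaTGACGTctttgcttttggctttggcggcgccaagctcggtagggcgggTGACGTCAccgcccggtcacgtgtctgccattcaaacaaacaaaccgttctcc
Btg2: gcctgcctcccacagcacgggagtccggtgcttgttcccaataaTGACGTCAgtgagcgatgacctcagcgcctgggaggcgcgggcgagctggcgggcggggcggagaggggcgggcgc
Zfp36: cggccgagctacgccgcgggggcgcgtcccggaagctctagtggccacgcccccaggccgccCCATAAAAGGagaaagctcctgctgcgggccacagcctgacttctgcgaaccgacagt
Dusp5: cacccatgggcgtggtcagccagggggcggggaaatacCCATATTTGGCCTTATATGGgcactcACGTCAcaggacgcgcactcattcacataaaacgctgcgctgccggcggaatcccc
Hspa1a: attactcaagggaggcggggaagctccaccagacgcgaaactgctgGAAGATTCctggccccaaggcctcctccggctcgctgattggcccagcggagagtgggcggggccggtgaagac

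The full upstream windows, 250 bases each, were available for 71 of the 89 members, and for 27025 genes in all. The CRE core TGACGT, searched on both strands, was in a window of 17 of the 71 members (23.9%) and of 7.29% of all genes. Those members included Fos, Atf3, Dusp1, Dusp5, Dusp8, Btg1, Btg2, Hspa5, Dnajb4, Dnajb11 and Dnajc25. The core was not confined to early genes. It was in 25% of 8 HSP70 and HSP90 genes and 20% of 20 J-domain genes. The shares were 33.3% of 9 AP-1 and ATF genes, 30% of 20 feedback inhibitors and 18.2% of 11 other early transcription factors. The 27025 genes were not limited to those of the blood table. The full CRE, TGACGTCA, which contains the core, was in the windows of Dusp1, Btg2 and Dusp8 (4.23% of the members against 1.77% of all genes). The CArG box was in 4 members, Egr2, Dusp5, Zfp36 and Dnajc16 (5.63% against 1.62%). The heat shock element GAANNTTC was in 6 members (8.45% against 7.73%) and its form TTCNNGAA also in 6 (8.45% against 8.11%). The AP-1 site TGANTCA was in 2 members (2.82% against 7.82%), and TATAAA on the strand of the gene was in 7 (9.86% against 8.94%). These are matches of letters and not measured sites, and the windows of Fosb, Nr4a1, Ier3 and Dnajb1 held none of them. Sites farther than 250 bases upstream were not searched, so a gene without a match may carry one there. Egr1, Hspa8, Hsp90aa1 and Hsp90ab1 were among the members without a window.

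One library stood apart from the rest. Summed over all 8003 genes, FPKM came to 70846 in Ctrl 1, against 10806 to 19551 in the other controls and 10311 to 11427 in the Akk libraries. FPKM counts fragments relative to transcript length and to all fragments mapped in a library, which lets levels be compared between genes per length. The sums cover only the genes the study had listed as different between these same groups, so they are not library totals, and the direction of a member in this table is not independent evidence. Ctrl 1 held the highest of the 6 values for 88 of the 89 members (98.9%), and for 97.9% of all genes of the table. Several comparisons are therefore given both with and without Ctrl 1, and the others with all 6 libraries only.

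All 89 members had a lower mean FPKM in the treated than in the control libraries, as did 99.5% of the table. None of the 89 passed the test. With limma on log2(FPKM + 0.1), a scale on which low genes appear to change less, 0 members were lower and 0 higher past the thresholds (1.5-fold and an adjusted p of 0.05), and the share in the whole table was 0%. The smallest adjusted p of a member was 0.487. One member, Dnajc25 (1.12% of the members), had an unadjusted p under 0.05, against 3.45% of the table. Limma without the trend likewise called 0 members, and the 1 at that unadjusted p was a different gene, Tnfaip8l2. Without Ctrl 3 the unadjusted count was 20 members (22.5%), against 20.1% of the table, and 0 members were called, against 23 genes or 0.287% of the table. The median log2 fold change, Akk minus Ctrl, was -0.91 over the members and -0.87 over the table. The smallest p that an exact two-sided permutation of 3 libraries against 3 allows is 0.1. In bulk blood, fewer cells of a type and less RNA per cell cannot be told apart.

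At a pseudocount of 0.1, several early genes were among those with the largest excess in Ctrl 1. On the log2(FPKM + 0.1) scale, Ctrl 1 exceeded the mean of Ctrl 2 and 3 by a median of 2.25 over the 89 members and of 1.95 over the table. Among genes with a mean of at least 1 FPKM the medians were 2.63 over 42 members and 2.37 over 2366 genes. An excess of at least 4 was reached by 5 of the 89 members (5.62%), Egr1, Fosl2, Fosb, Ier3 and Fos, and by 20 of the 8003 genes (0.25%). An excess of at least 3 was reached by 14 members (15.7%) and by 3.91% of the table. These values describe 1 library and carry no test. The order depended strongly on the pseudocount. Egr1 had the largest excess of all 8003 genes at 0.1, while 10 genes exceeded it at a pseudocount of 1 and 7 at 0.01. At 0.1, 1 and 0.01 in turn, 13, 79 and 62 genes exceeded Fosl2, 14, 1027 and 24 exceeded Fosb, 15, 335 and 49 exceeded Ier3, and 18, 3 and 110 exceeded Fos.

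By role, the median of this excess was 2.74 for the 12 AP-1 and ATF genes, 2.65 for the 14 other early transcription factors, 2.45 for the 23 feedback inhibitors, 2.16 for the 12 HSP70 and HSP90 genes and 2.06 for the 24 J-domain proteins, with 2.95 for the pair Mcl1 and Sgk1. The roles also differed in level, and low genes appear to change less on this scale. In the same order, the median of the mean FPKM was 1.00, 1.44, 1.43, 0.73 and 0.44, with 8.30 for the pair. Roles were assigned by gene symbol. The group called feedback inhibitors therefore takes in every Dusp, Tnfaip and Gadd45 gene of the table and Ier3ip1, whatever the function of each. The plot of the excess by role shows that the early groups owe their long upper tails to a few genes, while 20 of the 36 chaperones lay within the middle 50% of the table (1.46 to 2.35). Markers of some blood cells also exceeded the table median of 1.95. The median excess was 3.11 over 6 monocyte markers and 2.67 over 6 platelet markers. Over 11 neutrophil markers, of which 8 were highest in Ctrl 1, it was 2.03. All of these markers had a mean of at least 1 FPKM. Over all genes at that level the median was 2.37, which the neutrophil markers did not reach. The median excess was below the table median for the others, 1.65 over 8 NK cell markers, 1.59 over 3 B cell markers and 0.99 over 5 T cell markers. The part of cell makeup in the excess of the members was not tested.

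**Figure D1:**
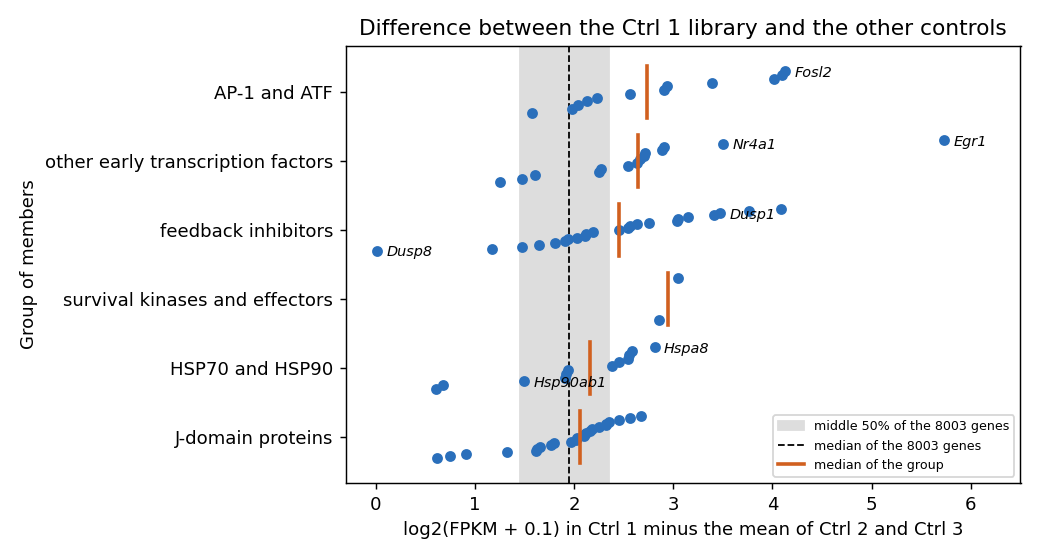
Difference on the log2(FPKM + 0.1) scale between the Ctrl 1 library and the mean of Ctrl 2 and 3, 1 point per member, by role. The dashed line is the median of the 8003 genes (1.95), the grey band their middle 50%, and the orange bars the group medians. Egr1 (5.73) lies far to the right and Dusp8 (0.02) far to the left.

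Fos, which pairs with Jun proteins to form the transcription factor AP-1, was at 61.7, 4.23 and 3.26 FPKM in Ctrl 1, 2 and 3, and at 3.87, 3.31 and 4.37 in Akk 1, 2 and 3. The 5 libraries other than Ctrl 1 overlapped closely. The mean ± SD was 23.1 ± 33.5 in the Ctrl group and 3.85 ± 0.53 in the Akk group (n = 3 each). The log2 fold change was -1.30 (SE 0.94, limma, adjusted p = 0.487), and without Ctrl 1 it was 0.04 (SE 0.32, limma, adjusted p = 0.993). Fosb, a relative of Fos, was at 3.11, 0.06 and 0.12 FPKM in the Ctrl libraries and at 0.67, 0.10 and 0.30 in the Akk libraries. Fosl2, another Fos relative, was at 9.37, 0.29 and 0.65 FPKM against 1.43, 1.10 and 1.21. All 3 Akk values of Fosl2 thus lay between Ctrl 1 and the other controls. Its log2 fold change of -0.07 (SE 0.92) became 1.31 (SE 0.39) without Ctrl 1, with an unadjusted limma p of 0.0090 and an adjusted p of 0.635.

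Atf3, a stress-induced factor of the ATF family, was at 3.92, 0.41 and 0.19 FPKM in the Ctrl libraries and at 0.56, 0.19 and 0.71 in the Akk libraries. The groups overlapped, and its log2 fold change went from -0.65 to 0.48 without Ctrl 1. Atf6, Atf6b, Atf7 and Atf7ip, which are not classical immediate-early genes, had log2 fold changes of -0.61 to -1.26 with Ctrl 1 and of -0.29 to 0.13 without it. Of the Maf factors, basic leucine zipper proteins related to AP-1, Mafg had a mean of 1.04 FPKM. Maf itself had a log2 fold change of -1.08 with Ctrl 1 and of -0.55 without it. None of the 12 AP-1 and ATF members had all Akk values below all Ctrl values, against 15.4% of the table, and this difference was not tested. Jun, Junb, Jund and Atf4 were not analysed here.

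Egr1, a zinc-finger factor induced by growth factor and antigen receptor signals, showed the widest gap. It was at 11.2, 0.15 and 0.08 FPKM in Ctrl 1, 2 and 3, a ratio of 97.0 between Ctrl 1 and the mean of the other controls. In Akk 1, 2 and 3 it was at 0.35, 0.14 and 0.17 FPKM. Among those 5 libraries it was near the low end of the scale, where values have 2 decimals. The log2 fold change was -1.37 (SE 0.91, limma, adjusted p = 0.487) and 0.54 (SE 0.41) without Ctrl 1. Its relatives Egr2 and Egr3 were at 0.22 and 0.21 FPKM in Ctrl 1 and at or below 0.04 in the other 5 libraries.

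Nr4a1, an orphan nuclear receptor induced by antigen receptor signals in lymphocytes, was at 35.0, 3.95 and 2.25 FPKM in the Ctrl libraries and at 7.77, 1.12 and 5.44 in the Akk libraries. Ctrl 1 was again the highest, and within the Akk group the Akk 2 library was far below the others. Klf2, a factor that keeps T cells and monocytes quiescent, was at 38.9, 10.1 and 6.51 FPKM against 4.95, 3.52 and 7.98. The groups overlapped only through Akk 3, which exceeded Ctrl 3, and the log2 fold change was -1.39 (SE 0.95), and -0.64 without Ctrl 1. Klf4 was at 3.49, 0.72 and 0.29 FPKM against 0.79, 0.24 and 0.43, and Klf6 at 13.5, 2.21 and 1.75 against 2.07, 1.19 and 1.73. Klf3 is a repressor of the same family. Its Ctrl values of 18, 5.55 and 6.16 FPKM all lay above its Akk values of 3.94, 4.90 and 3.54. Its log2 fold change of -1.04 was -0.51 without Ctrl 1. Klf10, Klf11, Klf13, Klf7 and Hif1a had log2 fold changes of -0.82 to -0.98 with Ctrl 1 and of -0.12 to 0.15 without it.

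**Figure D2:**
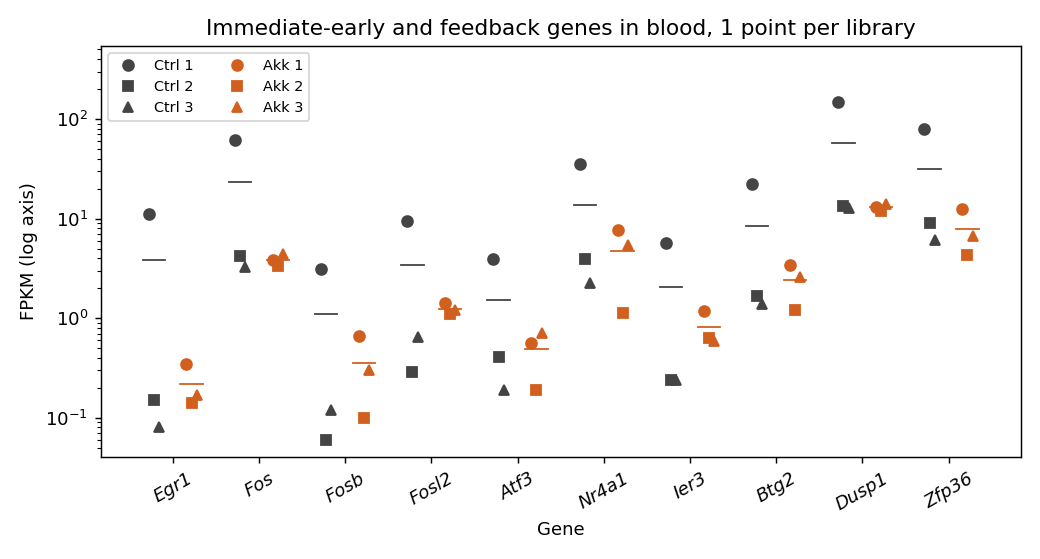
FPKM on a log axis of 10 immediate-early and feedback genes in each blood library. Symbols mark the libraries, grey for Ctrl and orange for Akk, and the bars are group means over 3 libraries. For all 10 genes Ctrl 1 lies above the other 5 libraries, and for Fosl2 and Ier3 the 3 Akk values lie above Ctrl 2 and 3.

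Of the feedback inhibitors, Dusp1 was the most abundant, at 147, 13.5 and 12.8 FPKM in Ctrl 1, 2 and 3. In Akk 1, 2 and 3 it was at 13.1, 11.8 and 14.0 FPKM, so 5 of the 6 libraries fell within a narrow band. Its log2 fold change was -1.18 (SE 0.96, limma, adjusted p = 0.487), and -0.02 (SE 0.32) without Ctrl 1. Zfp36 was at 79.9, 9.04 and 6.13 FPKM against 12.4, 4.35 and 6.72, with a log2 fold change of -1.20 that became -0.06. Its relative Zfp36l1 was at 12.9, 2.04 and 1.95 FPKM against 4.57, 1.94 and 1.54. Both showed a high Akk 1 library within the Akk group.

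Ier3, an early response gene that acts on ERK signalling and cell survival, was at 5.67 FPKM in Ctrl 1 and at 0.24 in both Ctrl 2 and Ctrl 3, and at 1.19, 0.64 and 0.59 in Akk 1, 2 and 3. As for Fosl2, the Akk values lay between Ctrl 1 and the other controls. The log2 fold change was -0.01 (SE 0.92) and became 1.36 (SE 0.41) without Ctrl 1, with an unadjusted limma p of 0.0091 and an adjusted p of 0.636. Btg2, which restrains cell division and promotes mRNA deadenylation, was at 22.1, 1.67 and 1.40 FPKM against 3.40, 1.21 and 2.58. Btg1, its relative, was at 29.2, 5.56 and 4.22 FPKM against 6.73, 3.53 and 4.78. Their log2 fold changes of -0.75 and -0.85 became 0.50 and 0.00 without Ctrl 1.

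The 12 Dusp genes varied among themselves. Their median log2 fold change was -1.06 with Ctrl 1 and -0.25 without it. With Ctrl 1 the range was from -0.35 for Dusp18 to -1.52 for Dusp6. Only Dusp1 among them had a mean above 10 FPKM. Dusp6, the phosphatase of ERK, was at 5.75, 1.06 and 0.33 FPKM against 0.80, 0.23 and 0.32. Dusp14 was at 1.90, 0.68 and 0.56 FPKM against 0.33, 0.45 and 0.27, with no overlap of the groups. Dusp8, a phosphatase of JNK and p38, was the member in which Ctrl 1 was not the highest library: its Ctrl values were 0.37, 0.34 and 0.39 FPKM and its Akk values 0.17, 0.27 and 0.11. Its 3 Ctrl values lay close together and all above the Akk values, and its log2 fold change was nearly the same with Ctrl 1 (-0.76, SE 0.86) and without it (-0.75, SE 0.41, limma, adjusted p = 0.910). Dusp2, Dusp4 and Dusp10 were not analysed here.

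Of the Tnfaip genes, named for their induction by tumour necrosis factor, Tnfaip8l2, which restrains Toll-like and T cell receptor signalling, was at 12.2, 2.62 and 1.77 FPKM in the Ctrl libraries and at 1.31, 1.04 and 1.5 in the Akk libraries. The groups did not overlap. Its log2 fold change was the lowest of all members, -1.54 (SE 0.93, limma, adjusted p = 0.487), and -0.72 (SE 0.34) without Ctrl 1. Tnfaip2 was at 16.3, 1.71 and 1.79 FPKM against 2.09, 1.66 and 2.59, so that its log2 fold change of -0.81 turned to 0.24. Tnfaip3 and Gadd45b were not analysed here. Mcl1, a short-lived survival protein of the Bcl2 family on which neutrophils depend, was at 56.0, 8.31 and 5.41 FPKM against 10.2, 6.35 and 6.81. Sgk1, a serum- and glucocorticoid-induced kinase, was at 4.05, 0.74 and 0.29 FPKM against 0.75, 0.33 and 0.33.

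Hspa8, the constitutive HSP70 of the cytosol, had the highest mean of all members, at 130, 23.9 and 14.2 FPKM in Ctrl 1, 2 and 3 and at 24.0, 12.8 and 13.5 in Akk 1, 2 and 3. The groups overlapped, since Akk 1 was as high as Ctrl 2. Hspa5, the HSP70 of the endoplasmic reticulum, was at 18.1, 3.82 and 2.24 FPKM against 4.28, 2.03 and 2.04. The heat-inducible Hspa1a and Hspa1b were low: 0.71 and 0.62 FPKM in Ctrl 1, and 0 to 0.13 in the other 5 libraries. These 2 genes are near-identical copies, so the split of reads between them is uncertain. Hspa12b and Hspa1l did not exceed 0.09 FPKM in any library.

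The HSP90 genes were more abundant and differed among themselves. Hsp90ab1, the constitutive cytosolic form, was at 54.5, 25.7 and 14.4 FPKM in the Ctrl libraries and at 13.2, 8.77 and 11.2 in the Akk libraries. All Ctrl values thus lay above all Akk values, the mean ± SD being 31.5 ± 20.7 against 11.1 ± 2.24 (n = 3 each). Its log2 fold change was -1.31 (SE 0.96, limma, adjusted p = 0.487) and -0.81 (SE 0.39, limma, adjusted p = 0.906) without Ctrl 1, the lowest of the members in that comparison. The inducible form Hsp90aa1 was at 14.7, 5.17 and 2.86 FPKM against 4.83, 2.32 and 2.88, with a log2 fold change of -0.26 without Ctrl 1. Hsp90b1, the form of the endoplasmic reticulum, was at 13.4, 2.82 and 1.73 FPKM against 3.31, 0.94 and 1.83.

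The J-domain proteins hand clients to HSP70, and most of the 24 were low, 16 of them with a mean under 1 FPKM. Dnajb1, the classical heat-inducible member, was at 2.62, 0.77 and 0.41 FPKM against 0.77, 0.37 and 0.18. Dnajb4 was at 7.28, 1.43 and 1.33 FPKM against 0.85, 1.02 and 0.57. Dnajb11, which works with Hspa5 in the endoplasmic reticulum, was at 4.62, 1.06 and 0.91 FPKM against 0.79, 0.45 and 0.42. In Dnajb4 and Dnajb11 the groups did not overlap, and the log2 fold changes of -1.5 and -1.48 were -0.73 and -0.77 without Ctrl 1. Dnajc25 was at 0.22, 0.10 and 0.08 FPKM against 0.03, 0 and 0.03. Its log2 fold change was -0.92 (SE 0.47, limma, unadjusted p = 0.0494 and adjusted p = 0.487), and -0.67 without Ctrl 1. Its values rest on the last decimals of the table, and its SE was 0.71 in limma without the trend. Dnaja1, Dnaja2 and Dnajc7, among the more abundant J-domain genes, had log2 fold changes of -0.68 to -0.94 with Ctrl 1 and of -0.22 to 0.05 without it.

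**Figure D3:**
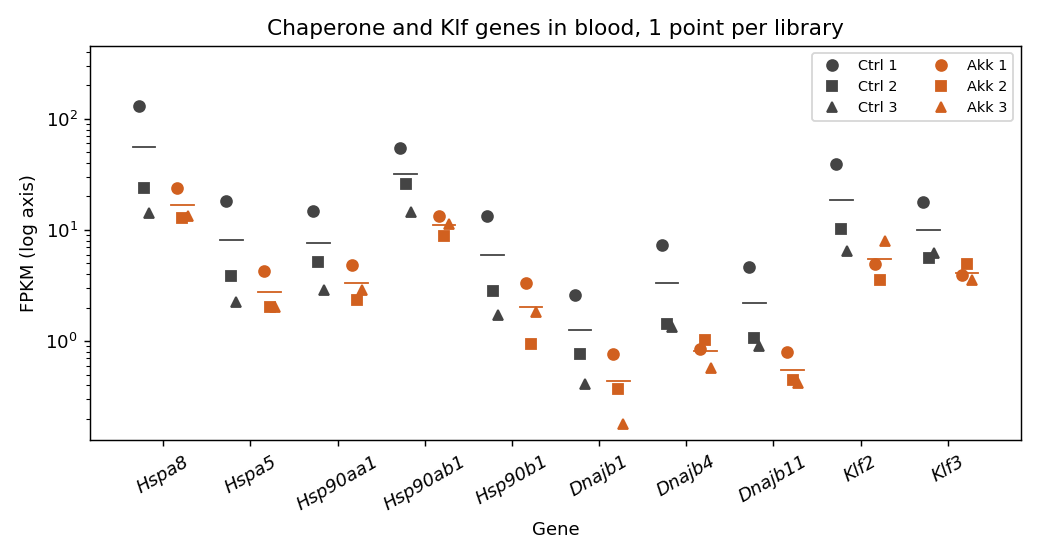
FPKM on a log axis of 8 chaperone genes and of Klf2 and Klf3 in each blood library. Symbols mark the libraries, grey for Ctrl and orange for Akk, and the bars are group means over 3 libraries. In Hsp90ab1, Dnajb4, Dnajb11 and Klf3 all Ctrl values lie above all Akk values, and in the other 6 genes the groups overlap.

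Over all members, the 3 Akk values lay below the 3 Ctrl values for 9 of 89 (10.1%), against 15.4% of the table. These were Klf3, Dusp8, Dusp14, Tnfaip8l2, Hsp90ab1, Hspa12b, Dnajb4, Dnajb11 and Dnajc25. Of these, Hspa12b did not exceed 0.09 FPKM in any library and Dnajc25 did not exceed 0.22. The Akk values lay above the Ctrl values for 0 members and for 0.175% of the table. Against Ctrl 2 and 3 alone, the Akk values lay below for 9 members (10.1%) and 15.6% of the table, and above for 2 members, Fosl2 and Ier3 (2.25%), and 0.962% of the table. The log2 fold change was positive for 25 members (28.1%) and for 18.4% of the table in that comparison, and 4 members, Fosl2, Ier3, Hspa12b and Dnajc25 (4.49%), had an unadjusted limma p under 0.05, against 5.29% of the table. The median over the members was -0.14, and -0.24 over the table.

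By role, 7 of the 12 AP-1 and ATF genes had a positive log2 fold change without Ctrl 1, with a median of 0.06, and all 3 Fos genes were among them. The counts were 3 of 14 for the other early transcription factors, 8 of 23 for the feedback inhibitors, 2 of 12 for the HSP70 and HSP90 genes and 4 of 24 for the J-domain proteins. Over the whole table the share was 18.4%, with a median of -0.24, and no role was tested against it. The plot of the group difference with and without Ctrl 1 sets Ier3, Fosl2 and Fosb apart at the top and Hsp90ab1 at the bottom. The Ctrl 1 excess and the difference without Ctrl 1 both subtract Ctrl 2 and 3, so a gene low there stands high in both. Genes entered the table by a difference between these same groups, so the limma p-values without Ctrl 1 carry that selection. When each library was also centred on its median and Ctrl 1 left out, an alternative chosen after seeing the data, 58 members were positive (65.2%, against 51.6% of the table). Of the 89 members, 5 had an unadjusted limma p under 0.05 (5.62%, against 4.35% of the table), Ier3, Fosl2, Fosb, Egr1 and Btg2. Their log2 fold changes were 1.61, 1.56, 1.32, 0.79 and 0.75, and the adjusted limma p of Ier3 was 0.0941. With all 6 libraries centred, 46 members were positive (51.7%, against 54.9% of the table). Centring shifts all genes of a library alike and by its construction brings the table near an even split.

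**Figure D4:**
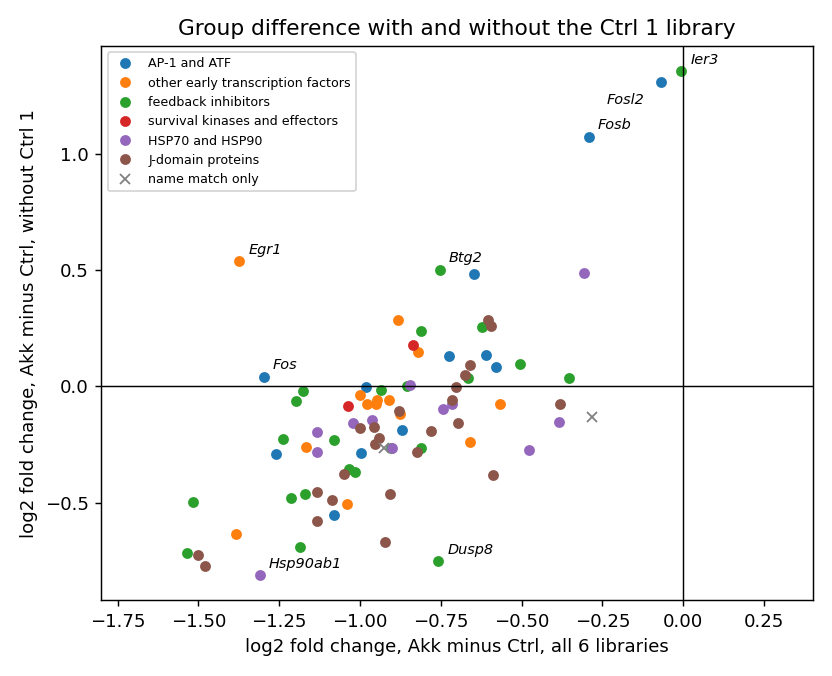
Log2 fold change (Akk minus Ctrl, log2(FPKM + 0.1) scale) of each of the 89 members, from all 6 libraries on the horizontal axis and without Ctrl 1 on the vertical axis, coloured by role. All members lie left of zero on the horizontal axis, and 25 lie above zero on the vertical axis, with Ier3, Fosl2 and Fosb the highest.

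The Akk libraries also differed among themselves in several members. On the log2(FPKM + 0.1) scale, the median difference of Akk 2 from the mean of Akk 1 and 3 was -0.38 over the members and -0.20 over the table. The widest gap was that of Nr4a1, at -2.44, with 5 genes of the table lower still, followed by Fosb (-1.47), Atf3 (-1.33), Hsp90b1 (-1.30), Btg2 (-1.23), Dnajc10 (-1.10) and Zfp36 (-1.05). For Fos and Dusp1 the differences were -0.30 and -0.19. Monocyte markers were low in the same library: 6 of 8 were listed, none at 0, all 6 lowest in Akk 2 within the Akk group, their summed level was 14.8, 5.08 and 12.5 FPKM in Akk 1, 2 and 3 and 223, 37.4 and 11.8 in the Ctrl libraries, and their median Akk 2 difference was -1.24. Of the neutrophil markers, all 11 listed, 7 were highest in Akk 2 within the Akk group and 4, Camp, Ltf, Ngp and Retnlg, were higher in Akk 3 than in Akk 2. Their sums, carried mainly by S100a8 and S100a9, were 145, 370 and 234 FPKM in the Akk libraries and 1420, 400 and 281 in the Ctrl libraries. The part of these cells in the Nr4a1 values was not tested.

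The members made up a similar share of the summed FPKM of the table in both groups, 1.40%, 0.891% and 1.10% in the Ctrl libraries and 1.46%, 0.953% and 1.14% in the Akk libraries. The groups overlapped in this share, and Ctrl 1 and Akk 1 held the highest share of their groups.

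The genes upstream of the early response gave no call either. Of the 39 kinases and factors listed for that role, 34 were in the table, 0 passed the test in either direction by limma, 0 had an unadjusted p under 0.05, and the median log2 fold change was -0.97 with Ctrl 1 and -0.21 without it. Srf, the serum response factor, was at 2.08, 0.62 and 0.41 FPKM in the Ctrl libraries and at 0.54, 0.20 and 0.24 in the Akk libraries. Of the 25 heat shock regulators and cochaperones, 13 were in the table, 0 passed the test or had an unadjusted p under 0.05, and the median was -0.94, and -0.19 without Ctrl 1. Bag3, a cochaperone of HSP70, was at 3.09, 0.46 and 0.49 FPKM against 0.34, 0.16 and 0.31, with no overlap.

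Dusp1 was among the 5 genes with a profile most like that of Fos. Over the 6 libraries, each centred on its median, Pearson's r with Fos across 2365 genes with a mean of at least 1 FPKM was highest for Cyth4 (0.99), Stat3 (0.99), Pak2 (0.98), Il17ra (0.98) and Dusp1 (0.98). Without Ctrl 1 the r of these 5 genes was 0.88 to 0.93. Stat3 was at 12.2, 1.52 and 1.20 FPKM in the Ctrl libraries and at 1.43, 1.06 and 1.18 in the Akk libraries. The r values are descriptions over 6 libraries that share the high Ctrl 1 library.

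Among the markers of blood cells, 11 of 11 neutrophil, 8 of 8 NK cell, 6 of 8 monocyte, 5 of 9 T cell, 3 of 9 B cell and 6 of 6 platelet markers were in the table, and 0 of them was called. In this order, 4, 4, 2, 0, 0 and 1 of the listed markers had an unadjusted limma p under 0.05. The share was 3.45% over the table. The median log2 fold changes of the marker groups were -1.66, -1.74, -1.72, -1.27, -0.90 and -1.04, against -0.91 for the members. Without Ctrl 1 they were, in the same order, -0.84, -1.12, -0.80, -0.94, -0.36 and -0.14. The members then had a median of -0.14 and the table of -0.24. The summed NK cell markers were at 74.4, 31.4 and 15.9 FPKM in the Ctrl libraries and at 13.8, 8.72 and 7.46 in the Akk libraries, with no overlap and with no marker at 0. Gzma carried much of that sum, at 36.5 FPKM in Ctrl 1. Taken singly, 5 of the 8 NK cell markers had no overlap, and Gzmb, Klrd1 and Eomes overlapped. Platelet markers summed to 3038, 716 and 301 FPKM in the Ctrl libraries and to 387, 403 and 486 in the Akk libraries. None of the 11 red cell markers, which would check the labelled tissue most directly, was analysed here. The part of these cells in the group differences of the members was not tested.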

How the data were processed

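Blood RNA was prepared with Trizol, mRNA was selected on oligo(dT) beads and libraries were sequenced on the BGISEQ-500. The authors deposited FPKM per gene and library, rounded to 2 decimals, for the genes they listed as differentially expressed, so the adjustment and the spread rest on selected genes. The paper names HISAT2, Bowtie2 and RSEM, and the submitters' processing notes name TopHat2, Cufflinks and GRCm38. The depth is unknown, so the number of libraries limits the precision. The titles give each library of a tissue its own number, shared between the tissues, but nothing says outright that these number separate mice, so p-values measure only the spread between these samples, which may be technical.

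Values were compared as log2(FPKM + 0.1) with limma 3.58.1 (trend, no scaling, R 4.3.3) over all 8003 genes, with Benjamini-Hochberg adjustment and a fold change of at least 1.5 at an adjusted p of at most 0.05. The test was tested on simulated data. Summaries used Python 3.11.15, pandas 2.3.3, numpy 2.4.6 and matplotlib 3.10.9. Alternatives were pseudocounts of 1 and 0.01, a mean of at least 1 FPKM, median centring, quantile normalization, limma with no trend, leaving out each library, the replicate number as a block, and centring with Ctrl 1 left out. Upstream promoter windows came from RefSeq (GRCm38.p6), matched by gene ID.

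The members and gene lists were chosen with earlier results of these data known. The named genes were a list of core members, the 5 members with the smallest p and the 3 with the highest mean. Members named because their groups did not overlap, and other genes named, among them Ier3, were chosen after their values were seen. Some results are not reported here.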

Additional observations from a re-analysis of the deposited data

How the results depend on the processing

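No member was called under any alternative, with 89 members tested, or 42 where a mean of at least 1 FPKM was required. In the whole table, 4 genes were called lower at a pseudocount of 0.01, 23 lower without Ctrl 3, 1 lower with the replicate block, 1 higher with centring, 1 lower and 1 higher with centring and no Ctrl 1, and 0 under the other alternatives. Leaving out 1 library moved the median log2 fold change of the members between -1.38 and -0.14, and the number of members with an unadjusted limma p under 0.05 rose from 1 to 20 without Ctrl 3, where the smallest adjusted p was 0.222 (Egr1). The replicate numbers did not pair the groups, with same-numbered correlations of 0.04, -0.01 and -0.10, and with the replicate block 0 members were called, the median stayed at -0.91 and the smallest adjusted p was 0.401. Centring moved the table median from -0.87 to 0.04, and the median of the members to 0.0084, 0.0858 with quantile normalization and 0.11 with centring and no Ctrl 1. The counting depth behind values near 0 is unknown.

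With centring, 12 of the 30 named members turned to a positive log2 fold change: Fosb 0.62, Fosl2 0.85, Nr4a1 0.0314, Atf3 0.27, Btg1 0.0594, Btg2 0.16, Mcl1 0.0793, Hspa1a 0.0702, Hspa1b 0.61, Hsp90aa1 0.014, Egr3 0.25 and Ier3 0.91. With quantile normalization, 15 of the 30 named members turned to a positive log2 fold change: Fosb 0.71, Fosl2 1.04, Nr4a1 0.33, Atf3 0.39, Dusp1 0.0871, Zfp36 0.0457, Klf4 0.10, Btg1 0.33, Btg2 0.39, Mcl1 0.39, Hspa1b 0.46, Hspa8 0.16, Hsp90aa1 0.32, Ier3 1.10 and Klf3 0.0858. With centring and no Ctrl 1, 17 of the 30 named members turned to a positive log2 fold change: Fos 0.29, Fosb 1.32, Fosl2 1.56, Egr1 0.79, Nr4a1 0.54, Atf3 0.73, Dusp1 0.23, Zfp36 0.19, Klf4 0.19, Btg1 0.25, Btg2 0.75, Mcl1 0.43, Hspa1a 0.26, Hspa1b 0.74, Hspa8 0.0546, Egr3 0.0095 and Ier3 1.61. With a pseudocount of 0.01, 3 of the 30 named members turned to a positive log2 fold change: Fosl2 0.0234, Hspa1b 0.23 and Ier3 0.13. Leaving out Ctrl 1 turned 12 of them, without Akk 2 Fosb, Fosl2 and Ier3 turned and without Akk 3 Ier3; their ranges over the libraries left out were Atf3 -1.41 to 0.48, Btg1 -1.38 to 0.0003, Btg2 -1.44 to 0.50, Egr1 -2.45 to 0.54, Fos -2.06 to 0.0416, Fosb -1.09 to 1.07, Fosl2 -0.99 to 1.31, Hspa1a -1.50 to 0.0075, Hspa1b -0.93 to 0.49, Ier3 -0.69 to 1.36, Mcl1 -1.49 to 0.18 and Nr4a1 -1.66 to 0.29. The cause was not tested.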
